A study of Mus musculus with 8 samples.

Results

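The mevalonate pathway genes described here were 8 named genes, Hmgcs1, Mvk, Mvd, Idi1, Fdps, Fdft1, Sqle and Srebf2, chosen for their place in sterol synthesis, with earlier results of these data known, out of 50599 records quantified in mouse heart. Each was found once by its GENCODE symbol and Ensembl identifier. RNA came from hearts of male C57BL/6N mice, all 12 weeks old and fed normal chow. In the 4 knockout mice, labelled Lrpprc knockout, both Lrpprc alleles were floxed and a Cre transgene removed the gene in heart and skeletal muscle, and the promoter that drives Cre is not given in the sources used here. The 4 control mice, labelled wildtype, carried the same floxed alleles without Cre (Lrpprc loxP/loxP). LRPPRC binds mitochondrial mRNAs, and the series compared its loss with controls. Total RNA was depleted of cytoplasmic rRNA and sequenced as paired-end reads.

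The mevalonate pathway builds isoprenoid units from acetyl-CoA in the cytosol. Its units go to sterols and also to the side chain of coenzyme Q, the dolichols, the lipid anchors of small GTPases and a modified adenosine in certain tRNAs. SREBP-2, the product of Srebf2, is a membrane-bound transcription factor that is released when sterols are scarce and then raises transcription of most enzymes of the pathway, through short promoter elements and together with NF-Y, which binds CCAAT boxes. The heart makes little cholesterol for export, and its cardiomyocytes use the same pathway for coenzyme Q.

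The genes did not move as a group in the knockout hearts. Squalene epoxidase mRNA (Sqle) rose 3.05-fold and farnesyl diphosphate synthase mRNA (Fdps) rose 1.41-fold (a call lost under total-count scaling). Squalene synthase mRNA (Fdft1), which stands between them in the pathway, fell to 0.699 of the wildtype level. The Fdft1 call was lost in 6 of 17 alternative fits, and its groups overlapped. The other 5 genes did not pass the test. Among all 19959 genes tested, 33.7% passed the same threshold, 18.2% higher and 15.5% lower in the knockout, so 3 of 8 is close to that background. The median log2 fold change of the 8 was −0.15, against 0.01 over all genes tested. The threshold was an adjusted p of 0.05 in DESeq2 over all genes, and all fold changes are log2 of knockout minus wildtype unless given as a fold. In the plot of values by library, the wildtype and knockout libraries separated for Fdps and Sqle.

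**Figure D1:**
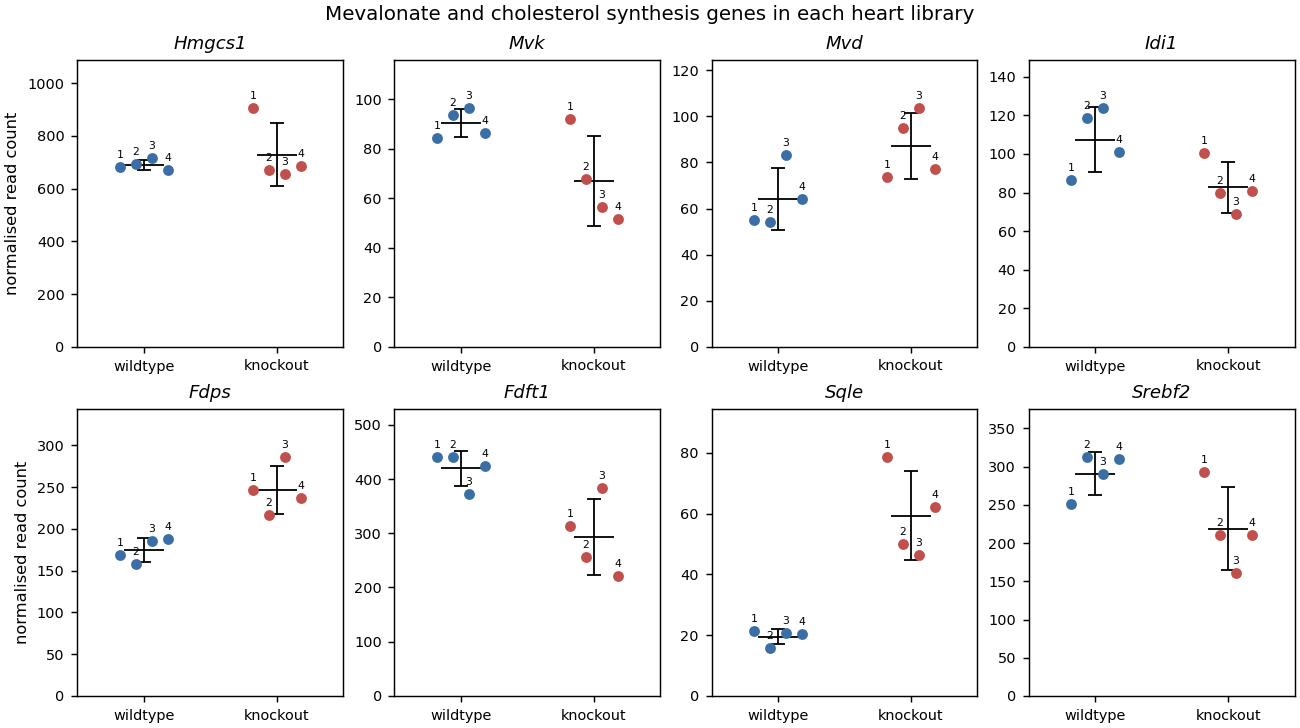
Normalised read counts (y axis, from 0) of the 8 genes in each library (points, numbered by replicate), with the mean and SD of 4 libraries per group (black). All 4 knockout libraries lie above all 4 wildtype libraries for Fdps and Sqle, and the groups overlap for the other 6 genes.

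Promoter sequences of 5 of the 8 genes were read from RefSeq (GRCm38.p6), each with 250 bases before and 50 after the start site, and 3 are shown because SREBP-2 and NF-Y elements are the best known controls of the pathway. Hmgcs1 and Srebf2 held the sterol element letters, and Mvk held the most CCAAT boxes. In each sequence the capitals mark TCACNCCA, letters of a sterol regulatory element, and CCAAT or its complement ATTGG. Both strands were searched, and no match of one motif overlapped the other. The Hmgcs1 window is chr13:119690101-119690400, Srebf2 is chr15:82147019-82147318 and Mvk is chr5:114444019-114444318, all on the plus strand.
Hmgcs1: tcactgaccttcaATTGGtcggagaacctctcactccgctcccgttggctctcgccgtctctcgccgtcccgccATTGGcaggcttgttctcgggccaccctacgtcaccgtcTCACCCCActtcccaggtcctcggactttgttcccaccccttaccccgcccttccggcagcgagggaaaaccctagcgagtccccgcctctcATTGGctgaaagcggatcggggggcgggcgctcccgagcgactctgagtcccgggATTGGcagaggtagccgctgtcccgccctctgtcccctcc
Srebf2: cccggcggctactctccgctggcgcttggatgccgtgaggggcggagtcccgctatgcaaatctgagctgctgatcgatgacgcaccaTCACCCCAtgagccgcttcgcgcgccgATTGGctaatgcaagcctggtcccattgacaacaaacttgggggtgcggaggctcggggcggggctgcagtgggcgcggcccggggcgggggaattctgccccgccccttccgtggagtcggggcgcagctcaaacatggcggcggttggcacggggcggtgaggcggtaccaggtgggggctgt
Mvk: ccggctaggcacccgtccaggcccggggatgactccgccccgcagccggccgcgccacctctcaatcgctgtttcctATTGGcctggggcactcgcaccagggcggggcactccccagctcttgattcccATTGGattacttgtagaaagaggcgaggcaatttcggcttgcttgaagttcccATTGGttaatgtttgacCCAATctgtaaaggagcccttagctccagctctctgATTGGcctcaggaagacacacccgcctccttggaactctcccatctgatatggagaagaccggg
Across 32851 promoters of the same length, 4.36% held TCACNCCA and 37.4% held CCAAT on either strand. TCACNCCA was present in 2 of the 5 promoters, at 137 bases before the start in Hmgcs1 and 162 bases before it in Srebf2. CCAAT occurred in all 5, with 4 matches in Hmgcs1, 5 in Mvk, 2 in Mvd, 2 in Idi1 and 1 in Srebf2. None of these 5 genes passed the test in the main comparison. Fdps, Fdft1 and Sqle had no entry in the promoter table.

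The targeted gene was examined first. Lrpprc (chr17:84705247-84790789, minus strand) had 3607, 3946, 3424 and 3682 normalised counts in the wildtype libraries and 597.4, 504.3, 605.4 and 600.8 in the knockouts, a log2 fold change of −2.67 ± 0.10 (SE) with an adjusted p of 3.77e-153. Total counts per library ranged from 35218541 to 47743376. Mitochondrial rRNA took 44.0 to 46.9% of the counts in wildtype and 65.6 to 67.8% in knockout libraries, which enters any level expressed per total count. Heart RNA cannot tell fewer cells of a type from less RNA per cell. Some markers of several cell types passed the test, beside 18.2% of all genes higher and 15.5% lower. Of 6 cardiomyocyte markers, 5 were lower (summed normalised counts 900200 to 1006000 in wildtype, 416500 to 543000 in knockout). Of 7 macrophage markers, 6 were higher (2917 to 3751 and 3669 to 8003). The collagens Col1a1 and Col3a1, of 6 fibroblast markers, were higher (14940 to 15940 and 13940 to 45600). Of 4 smooth muscle markers 2 were lower (5513 to 7139 and 1829 to 4241), and of 4 atrial markers 2 were lower (9980 to 12040 and 1268 to 6012). No gene of the endothelial, erythroid, adipocyte or Schwann cell lists passed the test, with summed counts of 12240 to 13270, 13870 to 17980, 63.5 to 214 and 192.4 to 219.1 in wildtype, and 8713 to 15440, 10060 to 37850, 22.7 to 180 and 145 to 246 in knockout. Knockout replicate 3 stood apart from the other knockout libraries, with the lowest atrial, smooth muscle, fibroblast, endothelial, adipocyte and macrophage sums and the highest erythroid and cardiomyocyte sums. The part of these cell types in the results was not tested.

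The first steps join acetyl units into mevalonate. Hmgcs1 (ENSMUSG00000093930, chr13:119690379-119708260) encodes the cytosolic HMG-CoA synthase, which condenses acetoacetyl-CoA with acetyl-CoA. Replicates 1 to 4 had 681, 693.1, 715.3 and 669.8 normalised counts in wildtype, and 906.1, 668.8, 654.8 and 686.5 in knockout. Knockout replicate 1 was high and the other 3 knockout libraries lay at the wildtype level. The log2 fold change was 0.08 ± 0.13 (SE), with a 95% interval of −0.18 to 0.34 and an adjusted p of 0.69. Without knockout replicate 1 it was −0.04.

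Mvk (ENSMUSG00000041939, chr5:114444269-114460591) encodes mevalonate kinase, the enzyme that first phosphorylates mevalonate. Wildtype replicates 1 to 4 had 84.5, 93.6, 96.5 and 86.4 normalised counts, and knockout replicates had 92.0, 67.7, 56.4 and 51.5. Knockout replicates 2, 3 and 4 lay below every wildtype library, and replicate 1 lay between the wildtype values. The log2 fold change was −0.44 ± 0.23 (SE) and the adjusted p was 0.128. Without knockout replicate 1 it was −0.63 and the adjusted p was 0.0207, which is past the threshold.

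Mvd (ENSMUSG00000006517, chr8:122433601-122443422) encodes the decarboxylase that makes isopentenyl diphosphate, the first isoprenoid unit. Its normalised counts were 55.1, 54.2, 83.3 and 64.3 in wildtype and 73.7, 94.8, 103.7 and 77.1 in knockout. The groups overlapped only through wildtype replicate 3, which was above knockout replicates 1 and 4. The log2 fold change was 0.44 ± 0.23 (SE), with a 95% interval of −0.02 to 0.89 and an adjusted p of 0.14.

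Idi1 (ENSMUSG00000058258, chr13:8885501-8892451) encodes the isomerase that turns isopentenyl diphosphate into dimethylallyl diphosphate. Wildtype libraries had 86.5, 118.4, 123.9 and 101.1 normalised counts and knockout libraries had 100.7, 79.9, 69.1 and 80.9. Wildtype replicate 1 was the low library of its group and knockout replicate 1 the high library of its own. The log2 fold change was −0.38 ± 0.21 (SE), with an adjusted p of 0.155. A processed pseudogene, Gm13502 (chr2:53696121-53696804), matches the Idi1 transcript over 684 bases at 100% identity, so reads in that stretch cannot be assigned to either. It took 0 to 7.11% of the reads of the pair in wildtype and 2.51 to 14.5% in knockout. With the copies of all members added to them, the log2 fold change of Idi1 was −0.23. The related gene Idi2, a second isomerase known from skeletal muscle, had 0 counts in all 8 libraries.

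Fdps (ENSMUSG00000059743, chr3:89093588-89101959) encodes the enzyme that joins the units into farnesyl diphosphate, the branch point from which sterols, coenzyme Q, dolichol and prenylated proteins part. Its normalised counts were 168.5, 158.2, 185.5 and 187.5 in wildtype and 246.9, 217.1, 286.1 and 237.2 in knockout. Its lowest knockout value exceeded its highest wildtype value. The means were 174.9 ± 14.0 and 246.8 ± 28.9 (SD, n = 4), and the log2 fold change was 0.49 ± 0.15 (SE) with an adjusted p of 0.00337. Under total-count scaling the call was lost (0.19, adjusted p 0.249). The processed pseudogenes of Fdps and Fdft1 had 0 counts, as did Gm43738, an annotated gene that overlaps Fdps on the same strand.

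Fdft1 (ENSMUSG00000021273, chr14:63145150-63179578) encodes squalene synthase, which commits farnesyl diphosphate to sterols. Wildtype replicates 1 to 4 had 440.7, 440.4, 372.4 and 424.5 normalised counts, and knockout replicates had 312.5, 256.4, 382.7 and 221.9. The groups met in replicate 3, where the knockout library was above the wildtype one. The means were 419.5 ± 32.3 and 293.4 ± 70.3 (SD, n = 4), and the log2 fold change was −0.52 ± 0.18 (SE) with an adjusted p of 0.0141. The call was lost when wildtype replicate 1, 2 or 4 or knockout replicate 2 or 4 was left out, with adjusted p of 0.0565, 0.0581, 0.0514, 0.0654 and 0.0618, while the log2 fold change stayed between −0.40 and −0.51 in those fits. It was also lost with totals that leave out mitochondrial rRNA, where Fdft1 was −0.10 with an adjusted p of 0.642. The last 774 bases of Fdft1 overlap Ctsb on the opposite strand, and the reads were counted by strand.

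Sqle (ENSMUSG00000022351, chr15:59315077-59331192) encodes squalene epoxidase, an oxygen-dependent enzyme and a slow step of the sterol branch. It had 21.3, 15.9, 20.7 and 20.2 normalised counts in wildtype and 78.6, 50.1, 46.5 and 62.2 in knockout. The lowest knockout library was above the highest wildtype library, with wide room between the groups. The means were 19.5 ± 2.47 and 59.3 ± 14.5 (SD, n = 4), and the log2 fold change was 1.61 ± 0.30 (SE), with a 95% interval of 1.02 to 2.20 and an adjusted p of 1.13e-06. Depth was low, with 18.1 to 67 reads assigned per library. The mean effective length of Sqle, which depends on which isoforms the reads were assigned to, was 3022 bases in wildtype and 2713 in knockout, and without a correction for it the log2 fold change was 1.46.

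Srebf2 (ENSMUSG00000022463, chr15:82147181-82205379) encodes SREBP-2, the regulator of the enzymes above. It had 251, 312.7, 290 and 309.6 normalised counts in wildtype and 293.4, 210.2, 161.4 and 210.7 in knockout. Knockout replicates 2, 3 and 4 were below every wildtype library, and replicate 1 fell within the wildtype range. The log2 fold change was −0.41 ± 0.19 (SE), with an adjusted p of 0.082. Without knockout replicate 1 it was −0.58, with an adjusted p of 0.00245. Knockout replicate 1 was thus the highest knockout library for 5 of the genes, Hmgcs1, Mvk, Idi1, Sqle and Srebf2.

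Without knockout replicate 3, which stood apart in its cell type markers, Fdft1 was −0.67 (adjusted p 5.23e-05), Fdps 0.42 (adjusted p 0.0195) and Sqle 1.71 (adjusted p 2.19e-06), and the other 5 genes did not pass, with Srebf2 at −0.29.

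Fdps and Sqle, 2 of 8, had groups that did not overlap, against 33.0% of all genes tested. With edgeR, a count model with another scaling and spread estimate, the same 3 genes passed (Sqle adjusted p 0.000782, Fdps 0.0133 and Fdft1 0.019) and the other 5 did not, where 39.7% of all genes passed.

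Set along the pathway, the changes did not follow the order of the steps. Of the 14 other sterol enzymes, 4 were higher (Lss, Por, Nsdhl and Msmo1), 5 were lower (Dhcr7, Acat2, Hsd17b7, Pmvk and Lbr) and 5 did not pass, beside 18.2% of all genes higher and 15.5% lower, and the median of the list was −0.16. The count lower was 3 with a replicate block and 0 with totals that leave out mitochondrial rRNA, so all 5 lower calls were lost in the latter. Lss, which encodes lanosterol synthase and acts on the product of Sqle, had 61.0, 37.7, 48.6 and 58.9 normalised counts in wildtype and 224.8, 299.7, 388.9 and 202.4 in knockout. Every knockout value of Lss exceeded every wildtype value, and the log2 fold change was 2.45 ± 0.26 (SE), with an adjusted p of 5.36e-20. The effective length of Lss was 4246 bases in wildtype and 2453 in knockout, and without the length correction the change was 1.73. Por encodes the reductase that passes electrons to squalene epoxidase and to the microsomal cytochromes P450. It rose from 489.6 ± 31.1 to 1455 ± 114 normalised counts (SD, n = 4), a log2 fold change of 1.57. Dhcr7, which encodes the reductase of the last step of the Kandutsch-Russell route, fell from 90.6 ± 29.6 to 45.4 ± 7.23 (SD, n = 4), a log2 fold change of −0.98 with an adjusted p of 0.00214. With totals that leave out mitochondrial rRNA it was −0.55 with an adjusted p of 0.114. Squalene epoxidase, its electron donor and the next enzyme thus all had higher mRNA in the knockout, and Pmvk, between Mvk and Mvd, was lower (log2 fold change −0.59). Nsdhl, Msmo1, Acat2, Hsd17b7, Pmvk and Lbr were named here after their values were seen.

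**Figure D2:**
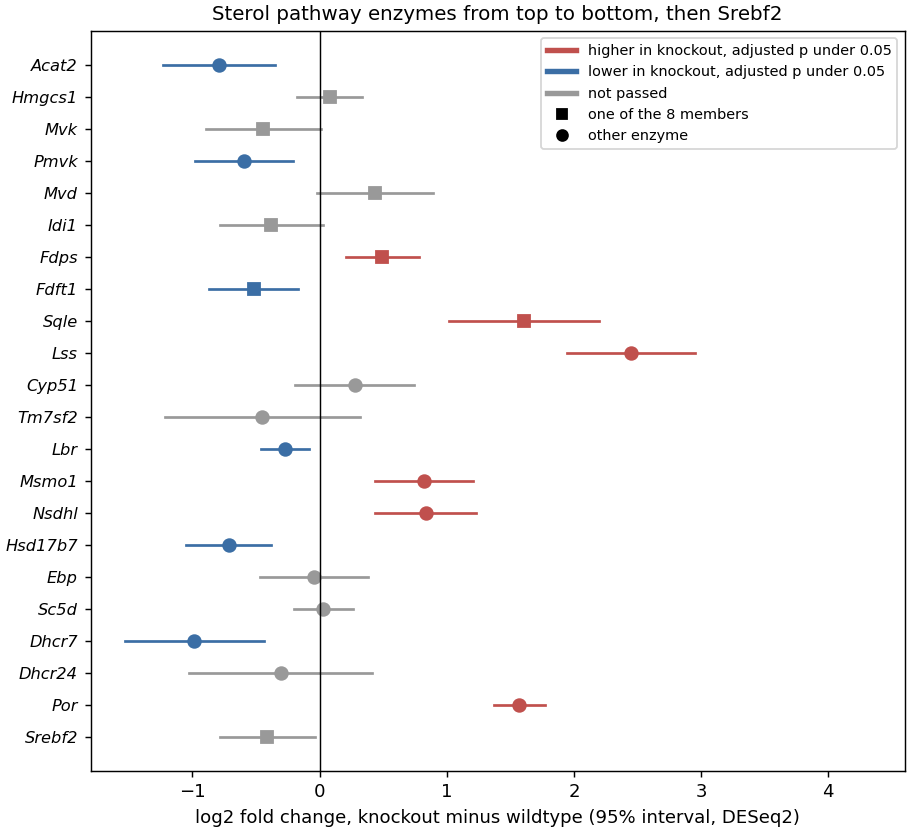
Log2 fold change of knockout minus wildtype (x axis) with its 95% interval for the sterol enzymes in pathway order and Srebf2, coloured by whether the adjusted p was under 0.05. Squares are the 8 genes described here, with Sqle at 1.61, Fdps at 0.49 and Fdft1 at −0.52, and circles are other enzymes, with Lss at 2.45.

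Levels per transcript length were compared in TPM, a share of the library's transcripts corrected for their length, in which mitochondrial rRNA is included. In wildtype hearts the order from the highest was Hmgcs1, 6.21 ± 0.25 TPM (SD, n = 4), Fdps, 4.46 ± 0.31, Fdft1, 4.30 ± 0.35, Mvk, 1.75 ± 0.12, Srebf2, 1.66 ± 0.15, Mvd, 1.11 ± 0.23, Idi1, 1.08 ± 0.17, and Sqle, 0.188 ± 0.026. Fdps and Fdft1, Mvk and Srebf2, and Mvd and Idi1 did not differ within these pairs beyond their spread. Sqle was the lowest in every library of both groups. In knockout hearts the levels were 5.97 ± 0.91 for Hmgcs1, 5.73 ± 0.43 for Fdps, 2.71 ± 0.45 for Fdft1, 1.38 ± 0.20 for Mvd, 1.18 ± 0.29 for Mvk, 1.14 ± 0.28 for Srebf2, 0.755 ± 0.13 for Idi1 and 0.522 ± 0.126 for Sqle. Mvd stood above Mvk and Srebf2 in that order, within the spread of all 3. The 8 genes summed to 20.8 ± 0.52 TPM in wildtype and 19.4 ± 1.24 TPM in knockout. Their summed normalised counts overlapped between the groups, at 1788 to 1888 in wildtype and 1628 to 2104 in knockout.

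Ratios between members do not depend on how libraries are scaled, and were computed for all 28 pairs as log2 of normalised counts, a step chosen after the values were seen. In 16 pairs the knockout and wildtype libraries did not overlap. The exact two-sided permutation test over 70 assignments gave each of these the smallest p it can reach, 0.0286, and the Benjamini-Hochberg value over the 28 pairs was 0.05, which does not pass. All 7 pairs with Sqle were among the 16. Such ratios restate the fold changes given above, and the share among pairs of all genes was not computed. The log2 ratio of Fdft1 to Sqle was 4.37, 4.79, 4.17 and 4.39 in wildtype and 1.99, 2.36, 3.04 and 1.84 in knockout, a difference of −2.12. The log2 ratio of Fdps to Fdft1, the enzymes before and after the branch point, was −1.39, −1.48, −1.01 and −1.18 in wildtype and −0.34, −0.24, −0.42 and 0.10 in knockout, a difference of 1.04. Against both neighbours, which were themselves called higher, squalene synthase mRNA was lower in every knockout library than in any wildtype library. In knockout replicate 3 its own normalised count, 382.7, lay within the wildtype range of 372.4 to 440.7. Fdft1, Idi1, Mvk and Srebf2 were picked for their like log2 fold changes. The small differences in their ratios to each other, −0.11 to 0.16, follow from that choice. The ratio of Mvd to Fdps differed by −0.04.

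**Figure D3:**
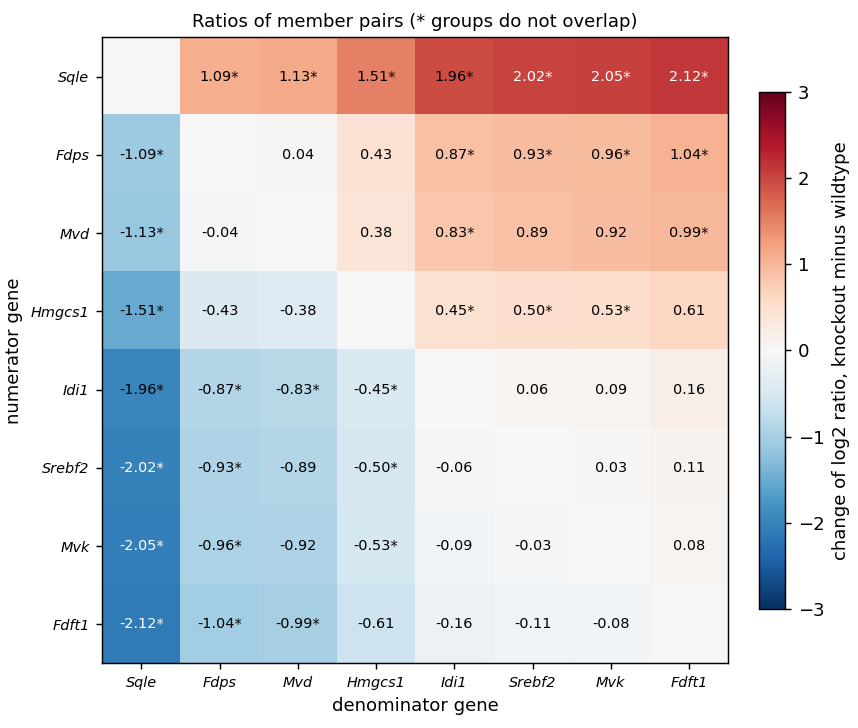
Change of the log2 ratio of each pair of the 8 genes, knockout minus wildtype (colour and number), with the numerator gene in rows and the denominator gene in columns and a star where the groups do not overlap. The Sqle row holds positive values throughout, up to 2.12 against Fdft1, and the block of Idi1, Srebf2, Mvk and Fdft1 stays between −0.16 and 0.16.

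The fitted values of all members shift together with the scaling. With libraries scaled to their total count, the median of all genes whose mean was 10 normalised counts or more lay at −0.28, Hmgcs1 was −0.22, and Mvk (−0.74), Idi1 (−0.68) and Srebf2 (−0.70) were called lower beside Fdft1 (−0.83). With totals that leave out mitochondrial rRNA, the median of all genes was 0.44, Hmgcs1 (0.51) and Mvd (0.86) were called higher beside Fdps (0.91), and Fdft1 was −0.10. Idi1 (0.05) and Srebf2 (0.02) then turned positive. Sqle was called higher under both, at 1.31 and 2.04. Less the median gene of the same scaling, Sqle was 1.59 in all 5 scalings shown, Fdps 0.47 to 0.48, Fdft1 −0.54 to −0.55, Idi1 −0.39 to −0.40 and Srebf2 −0.42 to −0.43. The share of calls that were higher was 53.9% in the main comparison, 24.6% under total counts and 87.8% under totals without mitochondrial rRNA.

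**Figure D4:**
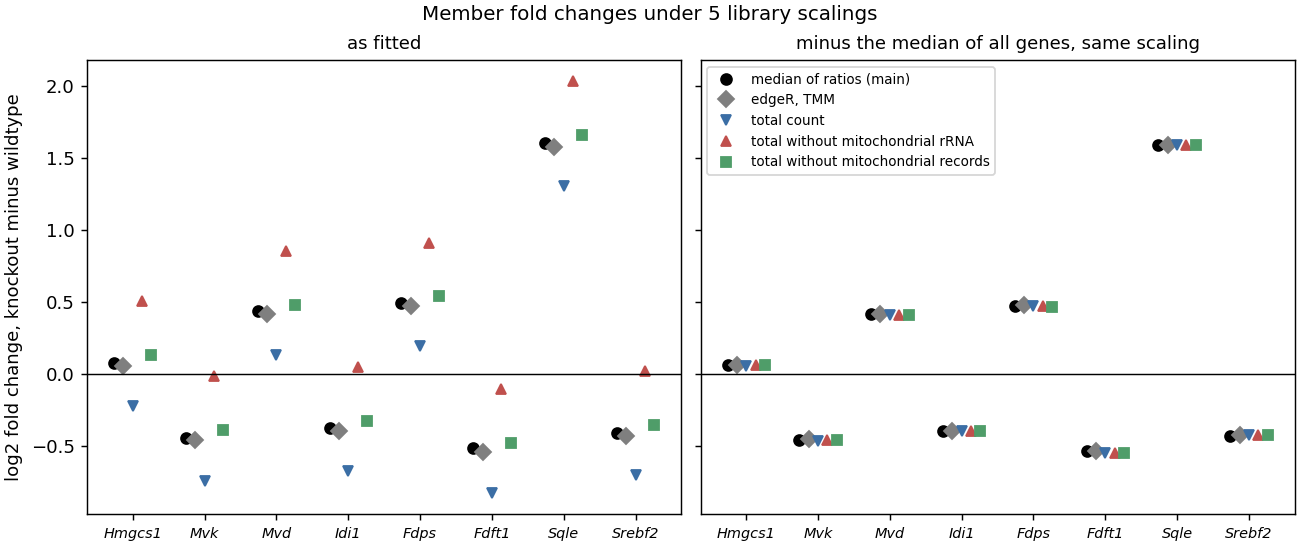
Log2 fold change of the 8 genes (y axis) under 5 library scalings, as fitted (left) and after subtracting the median of all genes whose mean was 10 normalised counts or more under the same scaling (right). On the left the values of each gene spread over the scalings, Sqle from 1.31 to 2.04, and on the right they coincide.

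Isoprenoid units also leave the sterol route for other products. Of 15 genes of the isoprenoid branches 3 were higher (Trit1, Rabggtb and Dhdds), 1 was lower (Coq2) and 11 did not pass, beside 33.7% of all genes called, and the list's median was 0.22. The counts became 13 higher and 1 lower with totals that leave out mitochondrial rRNA, and 1 higher and 5 lower with total counts. Trit1 encodes the transferase that adds an isopentenyl group to tRNA in the cytosol and in mitochondria. It rose from 75.5 ± 2.13 to 175.4 ± 20.8 normalised counts (SD, n = 4), a log2 fold change of 1.22 with an adjusted p of 1.14e-11. Coq2 attaches the polyprenyl tail to the coenzyme Q ring, and fell from 1112 ± 15.6 to 652.4 ± 92.2 (SD, n = 4), a log2 fold change of −0.77 with an adjusted p of 1.07e-09. Pdss1 (0.20) and Pdss2 (−0.25), the subunits of the synthase that makes that tail, did not pass, nor did Ggps1 (0.26), which makes geranylgeranyl diphosphate. Rabggtb, a subunit of the Rab prenylating enzyme, rose by 0.53 on the log2 scale, and the change was 0.23 with an adjusted p of 0.0818 under total-count scaling. Dhdds, Pdss1, Pdss2 and Ggps1 were named after their values were seen.

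Of 13 genes that control SREBP processing or sterol sensing, 2 were higher (Erlin1 and Scap), 3 were lower (Insig1, Srebf1 and March6) and 8 did not pass, beside 33.7% of all genes called, and the median was 0.06. With totals that leave out mitochondrial rRNA 9 were higher and 0 lower, and with total counts 1 was higher and 6 were lower. Insig1, which holds the SREBP complex in the endoplasmic reticulum and is itself an SREBP target, had 285.5, 289.7, 325.7 and 352.2 normalised counts in wildtype and 263.8, 177.6, 153.7 and 203.4 in knockout. Its groups did not overlap, and the log2 fold change was −0.65 ± 0.18 (SE), with an adjusted p of 0.00211. Insig1 was −0.22 with an adjusted p of 0.394 with totals that leave out mitochondrial rRNA. Srebf1 encodes SREBP-1, the relative of SREBP-2 that acts mainly on fatty acid synthesis. It had 577.4, 751.5, 663.8 and 537.4 normalised counts in wildtype and 372.2, 280.6, 483.9 and 478.6 in knockout, again without overlap. The log2 fold change was −0.65 ± 0.19 (SE), with an adjusted p of 0.00401, and with totals that leave out mitochondrial rRNA it was −0.22 with an adjusted p of 0.365. Erlin1, which acts in the degradation of sterol-regulated proteins of the endoplasmic reticulum, rose by 0.90 on the log2 scale, with an adjusted p of 1.71e-06. Scap (0.59) and March6 (−0.44) were named after their values were seen.

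Of 14 sterol handling genes 8 were higher, 2 were lower (Vldlr and Stard3) and 4 did not pass, and the median was 0.50, beside 18.2% of all genes higher and 15.5% lower. The count higher was 5 with total counts and 11 with totals that leave out mitochondrial rRNA. The count lower was 1 in edgeR and on leaving out any library but knockout replicate 3, and 0 with totals that leave out mitochondrial rRNA, and the groups of Vldlr overlapped. Soat1, which esterifies cholesterol for storage, had 129.7, 125.7, 211.2 and 105.3 normalised counts in wildtype and 448.5, 562.9, 271.9 and 550 in knockout, a log2 fold change of 1.68 ± 0.27 (SE) with an adjusted p of 8.8e-09. Its effective length was 3850 bases in wildtype and 2499 in knockout, and without the length correction the change was 1.07. Npc2, which carries cholesterol out of lysosomes, rose by 0.87 on the log2 scale, from 646.7 ± 28.4 to 1185 ± 169 normalised counts (SD, n = 4). Lipa, the lysosomal acid lipase that frees it from esters, rose by 0.81, from 443.1 ± 37.5 to 776.5 ± 174. Macrophages express these 3 genes strongly, and 6 of 7 macrophage markers were higher, with summed normalised counts of 2917 to 3751 in wildtype and 3669 to 8003 in knockout. Their part in the result was not tested. Scarb1, Osbp, Cyp27a1, Ch25h and Nceh1, the other 5 that rose, and Vldlr and Stard3 were named after their values were seen.

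Of 12 genes of fatty acid synthesis, which SREBP-1 controls, 2 were higher (Acaca and Me1), 1 was lower (Acacb) and 9 did not pass, beside 33.7% of all genes called, and the median was −0.11. Totals that leave out mitochondrial rRNA gave 6 higher and 0 lower, and total counts gave 1 higher and 4 lower. Acaca encodes the cytosolic acetyl-CoA carboxylase, and rose from 612.9 ± 141 to 2320 ± 464 normalised counts (SD, n = 4), a log2 fold change of 1.92 with an adjusted p of 1.62e-20. Acacb, the carboxylase of the outer mitochondrial membrane, fell from 6340 ± 716 to 3927 ± 741, a log2 fold change of −0.69. Me1, a cytosolic source of NADPH, was 1240, 1231, 1197 and 1180 in wildtype and 1512, 1667, 3154 and 1477 in knockout, with replicate 3 far above the rest. Its log2 fold change was 0.69, with an adjusted p of 0.0102, and without knockout replicate 3 it was 0.36, with an adjusted p of 0.000131. Acacb and Me1 also lost their calls under 1 scaling each.

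**Figure D5:**
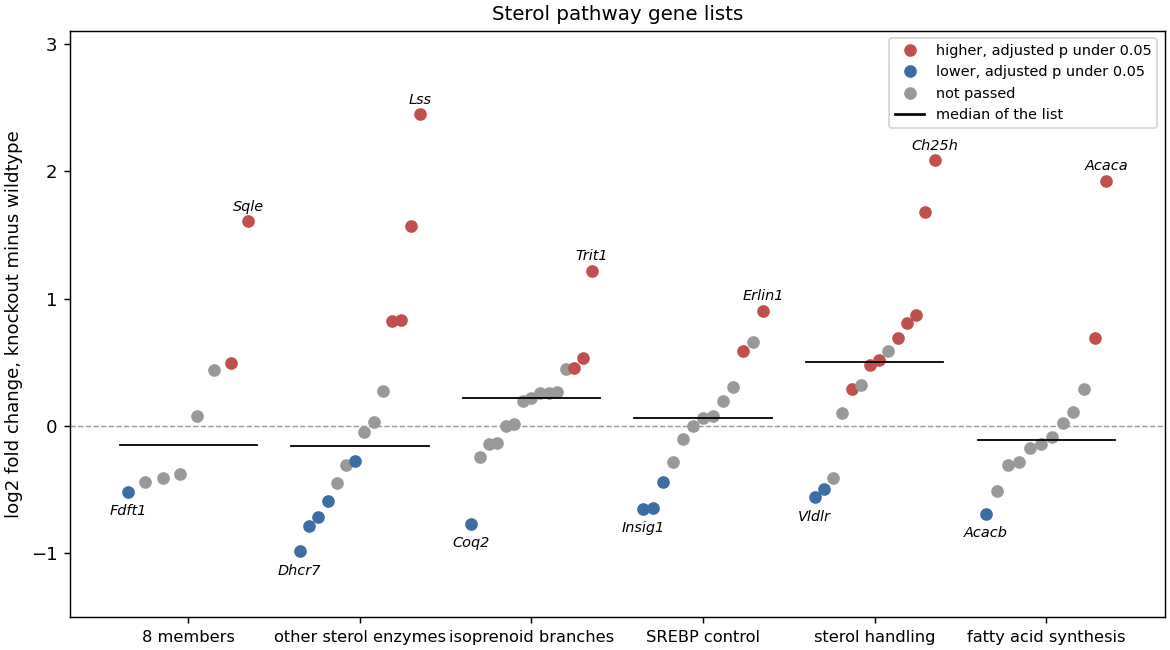
Log2 fold change (y axis) of each gene of the 8 members and 5 related lists, sorted within each list and coloured by whether the adjusted p was under 0.05, with the median of each list as a black line. The medians lie between −0.16 and 0.50, and every list has genes on both sides of 0.

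The members also varied within groups. Deviations of log2 normalised counts from the group means over the 8 libraries correlated between Hmgcs1 and Mvk at r = 0.87 and between Idi1 and Srebf2 at r = 0.83, and at −0.45 between Mvd and Srebf2. Over all 28 pairs the median was 0.06 and 16 were positive. Among 10443 genes whose mean was 100 normalised counts or more, the 5 that followed the mean deviation of the members most closely were Gpd2 (r = 0.988), Brd7 (0.986), Rangrf (0.985), Ckmt2 (0.984) and Tomm5 (0.979). They were picked as the highest of 10443 correlations over 8 libraries, so values this high reflect that choice, and shared control was not tested. The correlations also share the libraries and their scaling. Knockout replicate 1 carried the largest mean deviation of the members, 0.24 on the log2 scale. None of the 5 passed the test between genotypes, with log2 fold changes of 0.02 for Gpd2, 0.11 for Brd7, −0.19 for Rangrf, −0.26 for Ckmt2 and 0.22 for Tomm5.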

How the data were processed

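Heart RNA from 4 wildtype and 4 Lrpprc knockout male mice was grouped by the sample titles. The authors aligned reverse-stranded paired-end reads with bowtie2 and quantified GENCODE M13 transcripts of mm10, with added mitochondrial sequences, with RSEM 1.2.31. The deposited values used were the expected counts per gene, which need not be whole because RSEM divides shared reads, the TPM and the effective length in bases. The authors' comparison table (means, fold changes, p-values) and 8 normalised count columns that match no sample label were not used. Symbols came from GENCODE M21, with 50339 of 50563 Ensembl identifiers matched.

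Expected counts were rounded and fitted with DESeq2 1.42.0 in R 4.3.3 (Wald test, genotype as the term, effective length as an offset, median-of-ratios scaling). P-values were adjusted over all genes with independent filtering at 0.1. Adjusted p-values that DESeq2 did not give stayed missing. Normalised counts are scaled for depth and effective length. Errors of fold changes are standard errors, and intervals are 95% without adjustment. The pipeline was tested on simulated data. The fit was repeated in edgeR 4.0.16 (TMM scaling), and in DESeq2 without the length offset, with a filter of 10 counts in 4 libraries, with 4 other scalings, with copies summed, with a replicate block and without each library. Near-identical copies were found with blastn 2.17.0 (at least 95% identity over 200 bases). The study describes the libraries as coming from separate mice, and no replicate pair differed by as little as sampling noise.

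The members and gene lists were chosen with earlier results of these data known. Named genes were the 8 members, Idi2, near-identical copies, in each of 5 lists the 3 called genes with the largest change and a mean of 50 normalised counts or more, and the 5 genes most like the members in deviation (log2 of the count plus 1). Some genes of these lists are not reported here and were left out of the list counts.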

Additional observations from a re-analysis of the deposited data

Results flagged for a closer look

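In 48 groups of 4 libraries, taken from the members, Lrpprc and the named list genes, 4 had a library far from the other 3 by Dixon's test at the 95% level, where chance gives about 2.4. Hmgcs1 had 906.1 normalised counts in knockout replicate 1, against 654.8 to 686.5 in the other knockout libraries. Me1 had 3154 in knockout replicate 3, against 1477 to 1667. Erlin1 had 78.6 in wildtype replicate 1, against 104.1 to 106.1. Lrpprc had 504.3 in knockout replicate 2, against 597.4 to 605.4.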

How the results depend on the processing

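Sqle, Lss, Por, Trit1, Coq2, Erlin1, Soat1, Npc2, Lipa and Acaca kept their direction and their call in all 17 alternatives, and Lrpprc fell in all of them (−2.61 to −2.70 when single libraries were left out). With total counts, 1 member was called higher and 4 lower, and the counts higher were 1 in the isoprenoid branches, 1 in SREBP control, 5 in sterol handling and 1 in fatty acid synthesis, and lower 5 in the isoprenoid branches, 6 in SREBP control and 4 in fatty acid synthesis. With totals that leave out mitochondrial rRNA, 4 members were called higher and 0 lower, the counts higher were 13 in the isoprenoid branches, 9 in SREBP control and 6 in fatty acid synthesis, and the counts lower were 0 in the other sterol enzymes, SREBP control, sterol handling and fatty acid synthesis. Hmgcs1 turned to −0.22 under total counts, and Idi1 and Srebf2 turned to 0.0495 and 0.0204 with totals that leave out mitochondrial rRNA. These scalings move all genes by −0.30 and 0.42 relative to the main comparison. With totals that leave out all mitochondrial records, 5 genes of the isoprenoid branches were higher. Without the length offset, 2 members were lower, with Mvk at −0.52 (adjusted p 0.0352), and 5 genes of the isoprenoid branches were higher and 3 lower, as were 2 lower in fatty acid synthesis. edgeR called 1 sterol handling gene lower.

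Leaving out 1 library at a time gave 0 to 3 members lower and 2 higher, 3 to 5 other sterol enzymes lower, 1 to 2 genes of the isoprenoid branches lower, 2 to 3 of SREBP control higher, 1 to 2 of sterol handling lower and 1 to 3 of fatty acid synthesis lower. Hmgcs1 lay between −0.0402 (without knockout replicate 1) and 0.127. The cause of these changes was not tested.

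The replicate numbers did not pair the libraries. Deviations of same-numbered libraries from their group means correlated at −0.05 to 0.09, and of other pairs at −0.07 to 0.11. With the replicate block, 5496 genes were called, against 6728, 2 members were higher and 1 lower, and 3 other sterol enzymes were lower, while the other list counts did not change. Among the 8 members depth limits Sqle most, with 18.1 to 67 reads per library.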
